A study of Homo sapiens with 4 samples.

Results

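The UGT2B genes form a cluster on the long arm of chromosome 4 and encode UDP-glucuronosyltransferases, enzymes of the endoplasmic reticulum that attach glucuronic acid from UDP-glucuronic acid to steroids, bile acids, fatty acids and drugs. UGT2B15 and UGT2B17 conjugate dihydrotestosterone and its reduced metabolites, which ends their action on the androgen receptor, and androgen is known to lower the expression of both genes in prostate cancer cells. The 7 protein-coding UGT2B genes of the cluster were followed in LNCaP, an established line of prostate cancer cells taken from a metastasis in a lymph node, which is of luminal epithelial character and depends on the androgen receptor. They were chosen by their FPKM in this same comparison, in which UGT2B15 and UGT2B17 were already known to be higher with CRYM, so their values are given as a description, without a test.

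The 2 groups compared were as follows: LNCaP cells transfected with an empty vector, 2 libraries, and LNCaP cells transfected with a vector for CRYM, 2 libraries. The product of CRYM, mu-crystallin, holds thyroid hormone in the cytosol. Both groups were at passage 22, grew with 10% serum, were given 2500 ng of plasmid and 12 µL of lipofection reagent and were collected at 48 h, per the labels' protocols. The transfection was transient and followed by GFP, a single cell line was used, and the labels do not give the share of cells that took up plasmid. The labels call the 2 libraries of a group biological replicates without naming separate cultures, so a p-value measures the spread between these libraries, which may be technical.

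A gene was taken from the row that carries its symbol, or from the locus on chromosome 4 with the highest overlap with its hg19 span, at least 0.4 of their union. By this rule 6 of the 7 genes were found in all 4 libraries. The 4 tables share 52318 loci at identical positions, and UGT2B10 and UGT2B11, whose positions vary, are not among these. The lowest overlap of the 6 genes was 0.895, at UGT2B11 in CRYM library 2. Just outside lay an unnamed wider locus around UGT2B11, with an overlap of 0.399, and the best-matching locus over UGT2B7, with 0.270. UGT2B7 therefore has no value of its own here. A tested locus had to lie at an identical position in all 4 tables and to pass a filter on low values, 1 FPKM or more in 2 or more libraries. UGT2B15 and UGT2B17 alone met both conditions. UGT2B10 and UGT2B11 reached that level but not an identical position, and UGT2B28 and UGT2B4 did not reach the level.

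The value at each locus is its FPKM, the fragments on it scaled to its transcript length and to the mapped fragments of the library. Sequencing depth differed little: with empty vector library 1 set to 1, the second empty vector library had 1.15 and the CRYM libraries had 0.842 and 1.07. FPKM summed to 7918000 to 8349000 in the empty vector libraries and to 12090000 to 12660000 in the CRYM libraries. The CRYM locus checked the vector: it read 1.17 and 0.977 FPKM with the empty vector and 65.3 and 72.5 with the CRYM vector (limma log2 difference 5.07, adjusted p = 0.00252). Of 12 luminal prostate markers, 6 were identified and all 6 were tested. Their summed FPKM was 993 and 970 without and 751 and 776 with the CRYM vector. Without TMPRSS2, which read 317 and 305 against 71.5 and 71.8 FPKM, the other 5 summed to 677 and 665 against 680 and 705. TMPRSS2, SPDEF and HOXB13 were lower with CRYM, STEAP2 was higher, and the keratins KRT8 and KRT18 did not pass, where 33.3% of all 10091 tested loci passed in either direction. With quantile normalization KRT8 and KRT18 passed as higher (adjusted p = 0.0287 and 0.0177). On the scale of equal library totals they passed as lower (adjusted p = 0.00584 and 0.00439), as did 6256 of all 10091 tested loci. HOXB13 did not pass without the filter on low values (adjusted p = 0.0639) or with quantile normalization (adjusted p = 0.362), and STEAP2 turned to a log2 difference of -0.12 with libraries rescaled to the same total. In these bulk samples fewer cells of a type and less RNA per cell cannot be told apart.

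The 7 genes are close copies, which bears on how reads of 50 bases could be divided among them. A stretch of 60 coding bases from the first part of the reading frame is shown, chosen for the most differences between UGT2B15 and UGT2B17. It covers coding positions 358 to 417 of UGT2B15, and capitals mark bases that differ from UGT2B15.
UGT2B17: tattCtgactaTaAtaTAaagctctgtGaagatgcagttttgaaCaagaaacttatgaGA
UGT2B15: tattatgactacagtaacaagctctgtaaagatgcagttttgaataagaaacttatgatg
UGT2B10: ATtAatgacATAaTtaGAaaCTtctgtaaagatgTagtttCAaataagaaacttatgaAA
UGT2B7: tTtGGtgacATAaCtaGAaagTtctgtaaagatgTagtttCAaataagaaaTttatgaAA
UGT2B11: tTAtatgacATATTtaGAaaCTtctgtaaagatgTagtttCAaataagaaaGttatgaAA
UGT2B28: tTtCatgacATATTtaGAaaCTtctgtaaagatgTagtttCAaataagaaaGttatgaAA
UGT2B4: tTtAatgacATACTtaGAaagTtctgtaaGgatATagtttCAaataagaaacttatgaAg
UGT2B17 differs from UGT2B15 at 9 of these 60 bases and the other 5 genes at 16 or 17. UGT2B11 and UGT2B28 differ from UGT2B15 at nearly the same bases as each other. Counted from UGT2B15 alone, the stretch sets UGT2B15 and UGT2B17 apart from the other 5 genes in sequence, which says nothing of their substrates.

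Over the whole coding sequence of reference transcripts (GENCODE v29), identity between members ranged from 83.9% to 97.0% over 21 pairs. UGT2B15 and UGT2B17 were 96.5% identical, with 55 differing bases, and shared an unbroken run of 199 bases. UGT2B11 and UGT2B28 were 97.0% identical, with 47 differing bases. Each member has 6 exons and a coding GC content of 40.3% to 42.4%. Of the windows of 50 bases in the UGT2B17 transcript, 27.5% occurred unchanged in UGT2B15 and 56.9% occurred there with up to 2 mismatches. The exchange between the pair and the rest was smaller. Windows within 2 mismatches of UGT2B15 or UGT2B17 made up 5.53% of UGT2B10, 6.20% of UGT2B7, 3.43% of UGT2B11, 3.25% of UGT2B28 and 7.59% of UGT2B4. Within the rest, 78.4% of UGT2B28 windows match UGT2B11, and 49.7% and 42.7% of UGT2B10 windows match UGT2B11 and UGT2B28. Windows found unchanged in any other annotated gene, UGT2B pseudogenes included, made up 47.3% of UGT2B11, 35.7% of UGT2B28 and 31.7% of UGT2B10. In other members alone the shares were 24.8%, 23.3% and 17.6%. Reads could therefore be assigned wrongly between UGT2B15 and UGT2B17. The same holds among UGT2B10, UGT2B11, UGT2B28, pseudogenes and, to a smaller share of windows, UGT2B7 and UGT2B4. The single values are uncertain to at least that extent. How much of the low members' values came from reads of the 2 abundant genes was not tested.

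**Figure D1:**
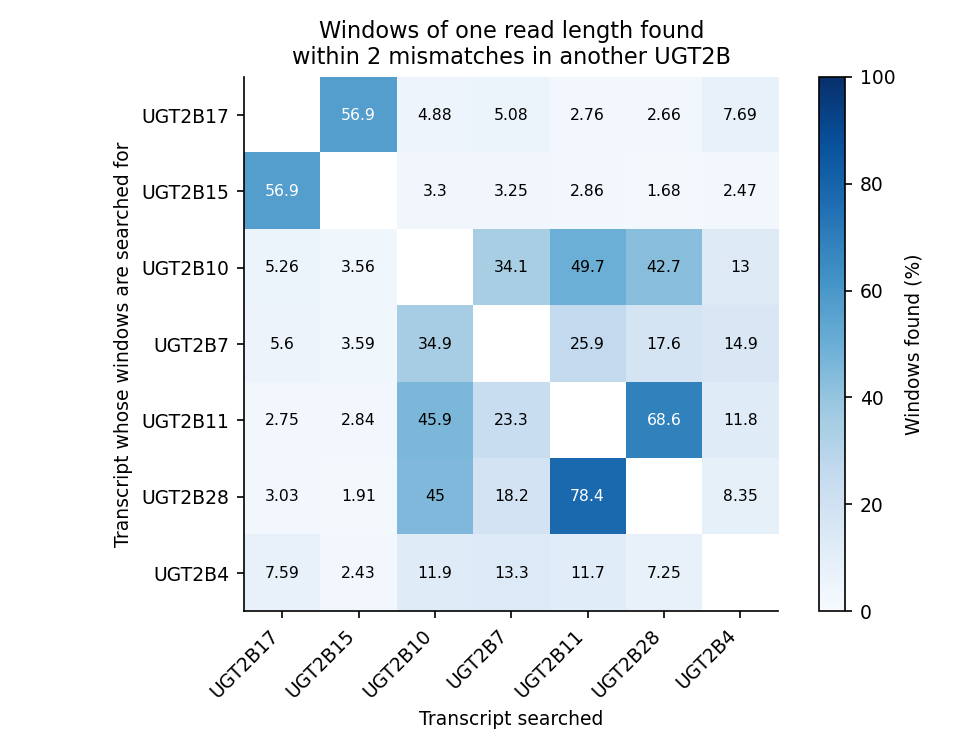
Share of all 50-base windows of each UGT2B transcript (vertical axis) found with up to 2 mismatches in each other UGT2B transcript (horizontal axis), in percent. The darkest pairs are UGT2B15 with UGT2B17, at 56.9% both ways, and UGT2B11 with UGT2B28, at 68.6% and 78.4%.

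UGT2B17 (chr4:69402902-69434245) and UGT2B15 (chr4:69512348-69536346) were the most abundant members in every library. UGT2B17 read 8.42 and 9.07 FPKM with the empty vector, against 55.4 and 54.6 with CRYM. The groups lie far apart beside the spread within them: the means were 8.74 ± 0.459 and 55.0 ± 0.591 (SD, n = 2), a ratio of 6.29, and the 4 pairings across the groups gave 6.02 to 6.58. UGT2B15 read 5.34 and 5.72 FPKM with the empty vector and 54.8 and 56.6 with CRYM. Its means were 5.53 ± 0.270 and 55.7 ± 1.28 (SD, n = 2), a ratio of 10.1 with a range of 9.58 to 10.6 over pairings. The lowest CRYM library stood 45.5 FPKM above the highest empty vector library for UGT2B17 and 49.1 above it for UGT2B15.

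The deposited bounds imply a number of fragments behind each value if they span 2 SD of counting error on each side. For UGT2B17 these were 1024, 1244, 5698 and 6994 in the order empty vector 1, empty vector 2, CRYM 1 and CRYM 2. For UGT2B15 they were 660.6, 791.2, 5709 and 7344. Brought to equal depth, the implied fragments gave ratios of 6.32 and 10.1, close to those of FPKM. The depth and the implied fragments both come from the deposited FPKM and bounds, so this closeness is not a second measure. Each bound comes from 1 library and does not cover the spread between libraries. The bounds may also hold more than counting error, so the implied numbers are not counts of reads. In empty vector library 1, UGT2B11 at 2.15 FPKM had 72.6 implied fragments, and UGT2B28 at 0.481 FPKM had 48.3. What else the bounds hold was not tested.

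UGT2B10 (chr4:69681711-69696914 in both empty vector libraries), an enzyme known for conjugating amines such as nicotine, was low with the empty vector. It read 0.399 and 0.515 FPKM there and 2.85 and 2.80 with CRYM. The CRYM libraries were alike and both stood above the empty vector libraries, with means of 0.457 ± 0.0820 and 2.82 ± 0.0355 (SD, n = 2) and a ratio of 6.18 (5.44 to 7.14 over pairings). Its bounds imply 45.5 and 65.2 fragments with the empty vector and 292.5 and 358.5 with CRYM.

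UGT2B11 and UGT2B28 are the other close pair. UGT2B11 (chr4:70065669-70080449 where it carries its name, in empty vector library 1) read 2.15 and 1.53 FPKM with the empty vector and 6.95 and 6.74 with CRYM. Its means were 1.84 ± 0.440 and 6.84 ± 0.148 (SD, n = 2), a ratio of 3.72 (3.13 to 4.54 over pairings). Here FPKM and fragments part: empty vector library 1 has the higher FPKM but 72.6 implied fragments against 139.2 in empty vector library 2. The ratio of implied fragments at equal depth was 7.78. It rests in part on the wide bounds of empty vector library 1 (1.65 to 2.66 FPKM), which may hold more than counting error. The start of the locus also moves between libraries, from 70065669 to 70065352, 70065031 and 70064812. The wider unnamed locus around it (chr4:70047378-70082484) read 0, 0.145, 1.34 and 1.43 FPKM. Added to UGT2B11, it gave 2.15, 1.68, 8.28 and 8.17 FPKM and a ratio of 4.30.

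UGT2B28 (chr4:70146217-70160768), which also conjugates steroids, had the lowest ratio of means of the 6. It read 0.481 and 0.459 FPKM with the empty vector and 0.909 and 1.19 with CRYM. The means of 0.470 ± 0.0154 and 1.05 ± 0.200 (SD, n = 2) gave a ratio of 2.23 (1.89 to 2.60 over pairings), and the groups did not overlap.

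UGT2B4 (chr4:70345883-70391732, unnamed in all 4 tables), known for bile acid conjugation in liver, was the lowest member found. It read 0.132 and 0.172 FPKM with the empty vector and 0.555 and 0.468 with CRYM, a ratio of 3.37 (2.72 to 4.21 over pairings). Only 4.2 and 7.6 implied fragments stand behind the empty vector values and 32.7 and 36.0 behind the CRYM values, so its ratio is imprecise. The ratio of implied fragments at equal depth was 6.70, outside that range. At the wider locus over UGT2B7 (chr4:69917081-69978705), an enzyme of broad substrate range, the values were 0, 0.0210, 0.199 and 0.125 FPKM, from 0, 0.6, 11.3 and 9.0 implied fragments. That locus also covers sequence outside UGT2B7, and no ratio is given against a value of 0.

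**Figure D2:**
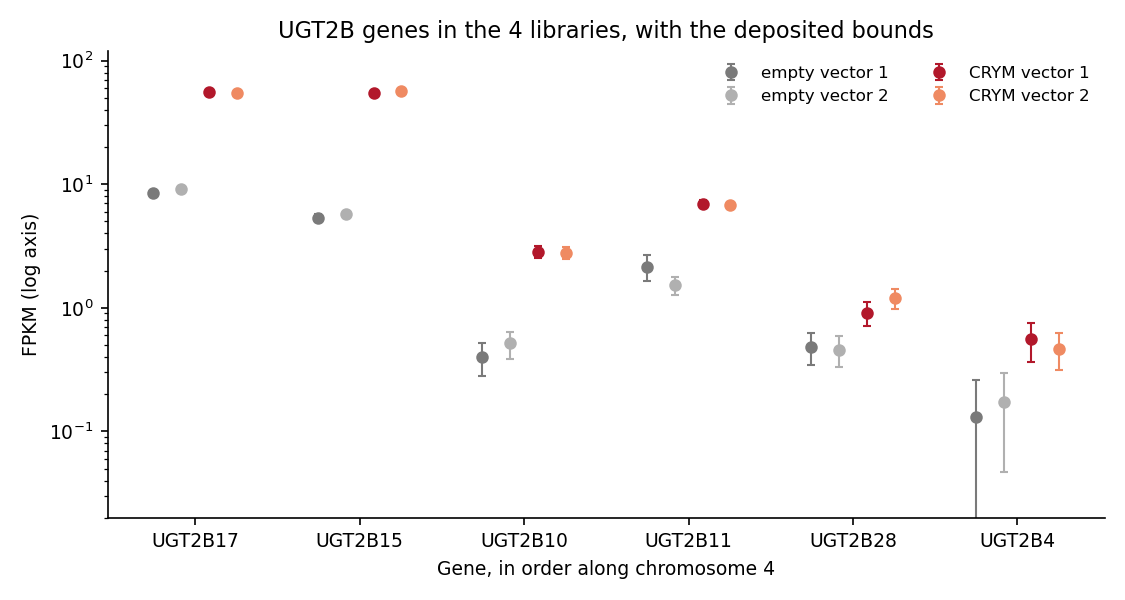
FPKM (log axis) of the 6 UGT2B genes found, in order along chromosome 4. Each point is 1 library, and bars span the deposited lower and upper bounds. In each gene both CRYM libraries lie above both empty vector libraries, with UGT2B15 and UGT2B17 at 54.6 to 56.6 FPKM with CRYM and UGT2B4 at 0.468 and 0.555.

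All 6 genes found thus had both CRYM libraries above both empty vector libraries. As background, 37.0% of the 10091 tested loci had groups that did not overlap with CRYM higher, as had 28.9% of 26482 shared loci above 0 in at least 1 library and 40.7% of 2307 long loci with an empty vector mean of 0.1 to 1 FPKM. Since the genes were chosen with this contrast known, nothing is read from their count or from the ranks below. The median of their 6 ratios was 4.95, and the median ratio over 9412 tested loci above 0 in all 4 libraries was 1.01. Of the 6, only UGT2B15 and UGT2B17 belong to the tested loci. UGT2B28 and UGT2B4 lie under the level for testing, so this background leaves out loci as low as they are. A ratio at least as high as that of UGT2B15 occurred at 11 of these loci (0.117%), as that of UGT2B17 at 25 (0.266%) and as that of UGT2B28 at 234 (2.49%).

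**Figure D3:**
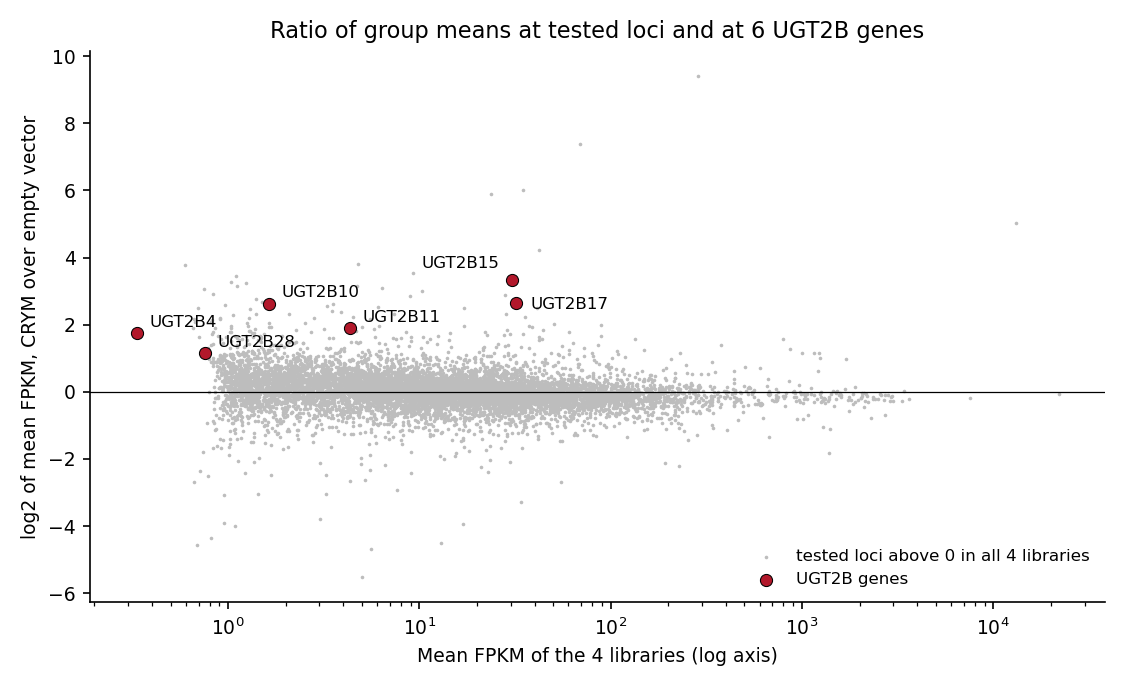
Ratio of group means, CRYM over empty vector, as log2 (vertical axis) against the mean FPKM of the 4 libraries (log axis). Grey points are tested loci above 0 in all 4 libraries and red points are the 6 UGT2B genes. UGT2B15 and UGT2B17 have ratios of 10.1 and 6.29, and UGT2B28 has the lowest of the 6, 2.23. Since the genes were chosen from this contrast, nothing is read from their place among the loci. Of the 6, only UGT2B15 and UGT2B17 are tested loci.

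The scale affects the size of the ratios. With each library rescaled to the same FPKM total, the ratio was 6.62 for UGT2B15, 4.13 for UGT2B17, 4.05 for UGT2B10, 2.45 for UGT2B11, 1.47 for UGT2B28 and 2.2 for UGT2B4. All 6 groups stayed apart with CRYM higher on that scale, where the median log2 difference over all tested loci shifted from 0.01 to -0.52.

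The balance between the 2 abundant genes differed between the groups, with the division of reads between them uncertain. UGT2B15 stood at 0.634 and 0.631 of UGT2B17 with the empty vector and at 0.989 and 1.04 with CRYM. With the empty vector UGT2B17 exceeded UGT2B15 in both libraries; with CRYM the 2 genes were at like levels and their order differed between libraries. FPKM of the 6 genes summed to 16.9 and 17.5 with the empty vector and to 121.0 and 122.0 with CRYM. UGT2B15 and UGT2B17 together supplied 81.3% and 84.7% of the sum with the empty vector and 90.7% and 90.8% with CRYM. UGT2B11 came next in every library, at 12.7% and 8.77% of the sum with the empty vector and 5.72% and 5.51% with CRYM. These shares carry the doubt about the UGT2B11 FPKM. Of the implied fragments at equal depth, UGT2B11 held 3.91% and 6.06% with the empty vector and 5.28% and 4.96% with CRYM, so its groups overlap on that measure. The 3.91% rests on the wide bounds of empty vector library 1, so this overlap is uncertain too. By implied fragments UGT2B15 and UGT2B17 together held 90.8% and 88.6% with the empty vector and 91.4% and 91.7% with CRYM. UGT2B10 and UGT2B28 exchanged places between the empty vector libraries, and with CRYM UGT2B10 was 3.13 and 2.35 times UGT2B28.

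**Figure D4:**
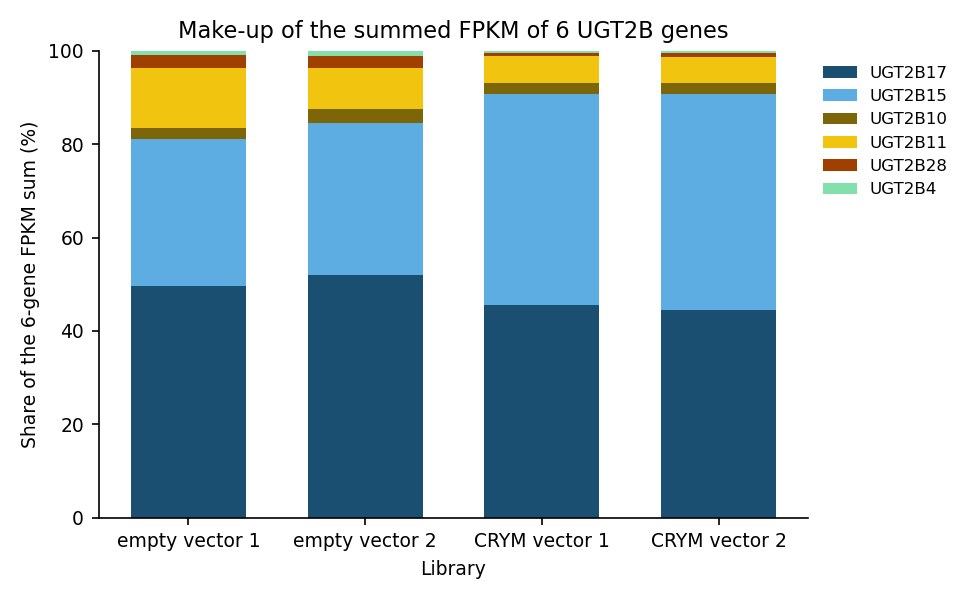
Share of the summed FPKM of 6 UGT2B genes held by each gene, in percent, 1 bar per library. UGT2B15 stands at 31.5% and 32.7% of the sum with the empty vector and at 45.1% and 46.2% with CRYM. The UGT2B11 segment differs by FPKM, but its share of implied fragments overlaps between the groups, and both measures are uncertain for this gene.

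The assembled loci differed in 1 more way. UGT2B15 and UGT2B17 carry their symbols in both empty vector tables and only a number from the assembler in both CRYM tables, at the same positions. Of 4473 protein-coding loci named in both empty vector tables, 62 (1.39%) were unnamed in both CRYM tables, and 63 of 4479 (1.41%) were so in the reverse direction. In CRYM library 1 UGT2B15 and UGT2B17 have the same assembler number. Both genes lie on the minus strand. In the 10 kb past the end of UGT2B17, no locus was listed in the empty vector libraries, and 7 loci covering 33.4% and 7 covering 52.0% were listed in the CRYM libraries. Past the end of UGT2B15 the count was 0 in both empty vector libraries, and the CRYM libraries had 10 loci covering 77.1% and 9 covering 70.2%. Before the start of UGT2B17 no locus was listed in any library. Before the start of UGT2B15 loci were listed in all 4 libraries, covering 11.7% and 36.5% with the empty vector and 58.0% and 92.9% with CRYM. Other named protein-coding loci at 40 to 70 FPKM had a median coverage past the end of 0% in each library, and 6 of 46 and 8 of 48 of them reached 33% in the CRYM libraries. Before the start their median was also 0%. There 5 of 49 and 4 of 48 reached 33% in the empty vector libraries, and 9 of 46 and 10 of 48 in the CRYM libraries. The kit keeps strand, per the labels' protocols, and the labels do not say whether the quantification used it.

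**Figure D5:**
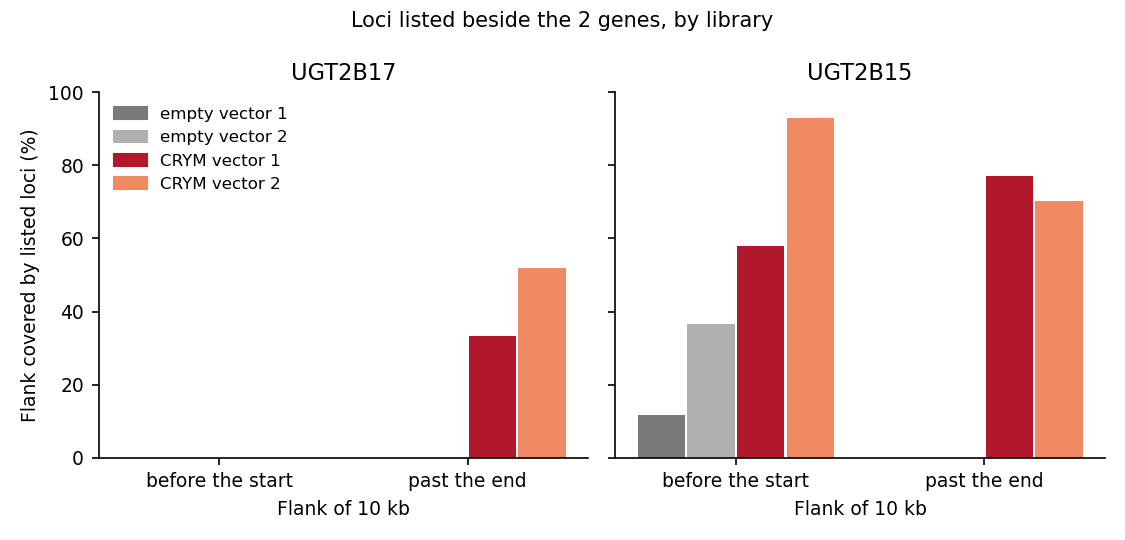
Percentage of the 10 kb before the start and past the end of UGT2B17 and UGT2B15 that is covered by listed loci, 1 bar per library. Past the end, both empty vector libraries are at 0 and the CRYM libraries reach 33.4% and 52.0% at UGT2B17 and 77.1% and 70.2% at UGT2B15. Before the start of UGT2B15 all 4 libraries have coverage, 11.7% and 36.5% against 58.0% and 92.9%.

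The rest of the cluster, from YTHDC1 to the end of the unnamed locus at 70586880 to 70653679, held 44 shared loci that are not members, of which 25 were at 0 in all 4 libraries and 3 were tested. By limma over all tested loci, 2 of the 3 were higher with CRYM and 0 were lower, where 15.7% of all tested loci were higher and 17.7% lower. One was the wider locus around UGT2B11 (log2 difference 1.16, adjusted p = 0.0141). It spans that member, which was chosen from this contrast, so its call tells nothing of neighbouring loci. The other was YTHDC1 (chr4:69176105-69215807), a reader of methylated adenosine in RNA, at 24.6 and 25.9 FPKM with the empty vector and 33.7 and 32.5 with CRYM (log2 difference 0.38, adjusted p = 0.0181). On the same-total scale YTHDC1 turned to a log2 difference of -0.21 (adjusted p = 0.0781). The flanking genes TMPRSS11E, UGT2A1 and SULT1B1 were not identified.

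UGT2B pseudogenes lie between the genes, and their reads can come from either. Of 37 pseudogene loci of any kind in the interval, 23 were at 0 throughout. Of the other 14, 8 had both CRYM libraries above both empty vector libraries, where 28.9% of all shared loci above 0 in at least 1 library did; 1 of the 8 is MT2P1, a metallothionein pseudogene. UGT2B29P (chr4:69375159-69383365) read 0, 0.0159, 0.188 and 0.263 FPKM, from 0, 1, 9 and 16 implied fragments. RP11-1267H10.1, RP11-1267H10.2, RP11-1267H10.3 and RP11-1267H10.4, which lie on either side of UGT2B15, had 0 to 4 implied fragments per empty vector library and 8 to 17 per CRYM library. UGT2B27P, UGT2B26P, UGT2B25P and UGT2B24P, farther along, had at most 5 in any library. UGT2A3, a neighbouring gene of another subfamily, was listed at 0 in both empty vector libraries and read 0.0116 and 0.0216 FPKM with CRYM.

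The 200 bases before the start site are shown for the 4 members that the RefSeq promoter table holds (GRCh38.p14), since 3 of them were higher with CRYM. UGT2B17, UGT2B28 and UGT2B4 have no entry there. The windows are chr4:68670653-68670852 on the minus strand for UGT2B15, chr4:68815794-68815993 on the plus strand for UGT2B10, chr4:69096274-69096473 on the plus strand for UGT2B7 and chr4:69214749-69214948 on the minus strand for UGT2B11. Capitals mark matches to 5 motifs searched on both strands: AGAACA, one arm of the androgen response element; TGTTTAC and TATTTAC, forms of the forkhead motif that FOXA proteins bind; the palindrome that HNF1 proteins bind; and TATATAA, one form of the core promoter element called TATA box.
UGT2B15: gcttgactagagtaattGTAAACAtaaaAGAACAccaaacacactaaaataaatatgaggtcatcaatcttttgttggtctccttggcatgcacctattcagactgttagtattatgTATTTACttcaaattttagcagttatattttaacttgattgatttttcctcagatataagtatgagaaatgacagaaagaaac
UGT2B10: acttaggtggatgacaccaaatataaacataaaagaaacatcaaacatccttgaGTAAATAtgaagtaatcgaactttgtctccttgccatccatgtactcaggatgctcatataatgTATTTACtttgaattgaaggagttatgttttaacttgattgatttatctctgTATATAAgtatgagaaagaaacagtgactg
UGT2B7: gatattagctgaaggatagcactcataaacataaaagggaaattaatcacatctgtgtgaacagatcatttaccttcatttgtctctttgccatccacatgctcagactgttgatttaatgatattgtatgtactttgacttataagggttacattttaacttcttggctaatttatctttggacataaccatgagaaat
UGT2B11: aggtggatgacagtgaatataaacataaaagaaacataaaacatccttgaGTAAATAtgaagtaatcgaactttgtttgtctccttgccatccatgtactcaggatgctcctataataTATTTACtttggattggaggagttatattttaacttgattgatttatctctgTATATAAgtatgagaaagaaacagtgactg
UGT2B10 and UGT2B11 were 95.4% identical in this window, and UGT2B15 was 74.2% and 73.7% identical to them. AGAACA matched once, in UGT2B15, with its first base 172 before the start, and it occurs in 9.78% of 35116 promoter windows. TGTTTAC matched once on the other strand of UGT2B15 (2.32% of windows). TATTTAC (1.82% of windows) matched once in UGT2B15 and at 2 places each in UGT2B10 and UGT2B11; the match nearest the start begins 83, 82 and 82 bases before it. TATATAA (1.93% of windows) matched 30 bases before the start of UGT2B10 and UGT2B11. The HNF1 palindrome (0.0057% of windows) matched in none of the 4, and UGT2B7 matched no motif. A match describes the letters only.

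Genes around glucuronidation were followed from fixed lists of 58 genes, chosen with earlier results of these data known. Of the 58, 30 were identified, 7 by symbol and 23 from the order of their named neighbours, and 14 were tested. With limma over all tested loci, 3 of the 14 were higher with CRYM, 3 were lower and 8 did not pass, and the median log2 difference was -0.055. Over all 10091 tested loci 33.3% passed in that fit, and the median was 0.0112. With libraries rescaled to the same total, 2 of the 14 were higher and 8 lower, where 297 of all 10091 tested loci were higher and 6256 lower. With any 1 library left out, limma called 0 loci in the whole table, with 3627 to 3815 loci at an unadjusted p under 0.05.

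None of the 4 tested genes of sugar donor supply and removal was higher with CRYM, and 1 was lower. UGP2 (chr2:64068074-64118696), which makes UDP-glucose, was at 21.2 and 21.8 FPKM with the empty vector and 17.6 and 15.8 with CRYM (log2 difference -0.35, adjusted p = 0.0421). It did not pass without the filter on low values (adjusted p = 0.0885) or with quantile normalization (adjusted p = 0.0566). UGDH, which oxidises UDP-glucose to UDP-glucuronic acid, was at 25.1 and 24.3 against 23.0 and 23.1 FPKM (log2 difference -0.10, adjusted p = 0.106). UXS1, which consumes UDP-glucuronic acid, and GUSB, the lysosomal enzyme that removes glucuronic acid, did not pass either (adjusted p = 0.389 and 0.411). On the same-total scale UGDH and GUSB passed as lower (adjusted p = 0.00345 and 0.00468), as did 6256 of all 10091 tested loci. Of 15 other UGT genes, 4 were identified, and the 1 tested, UGT8, was at 1.24 and 1.06 against 1.20 and 1.23 FPKM (adjusted p = 0.716).

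None of the 4 tested genes of androgen synthesis and interconversion passed: HSD17B4, HSD17B10, SRD5A3 and STS. On the same-total scale 3 of them passed as lower: HSD17B10 (log2 difference -0.66, adjusted p = 0.00316), SRD5A3 (-0.69, adjusted p = 0.00402) and STS (-0.39, adjusted p = 0.0246). On that scale 6256 of all 10091 tested loci passed as lower, so nothing particular to these genes is read from this. HSD17B4, the highest, read 99.3 and 98.7 FPKM with the empty vector and 94.6 and 161.0 with CRYM, so its CRYM libraries differed from each other more than the groups did. HSD17B10 was at 83.0 and 78.2 against 78.0 and 76.2 FPKM. SRD5A3, of the steroid 5-alpha reductase family, was at 50.0 and 50.6 against 46.9 and 47.3 FPKM (adjusted p = 0.0705). Among exporters of glucuronides, ABCC3 and ABCG2 were identified and both stayed under the level for testing: ABCC3 read 0.230 and 0.179 against 0.175 and 0.131 FPKM, and ABCG2 read 0.0356 and 0.0466 against 0.195 and 0.169.

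A list of 8 genes described as androgen-repressed in LNCaP had 6 identified and 5 tested, of which 3 were higher with CRYM and 2 lower. OPRK1 (chr8:54138284-54164257), an opioid receptor gene, read 0.856 and 1.06 FPKM with the empty vector and 8.48 and 8.47 with CRYM, a ratio of 8.83 (log2 difference 2.28, adjusted p = 0.00489). ACKR3, an atypical chemokine receptor, went from 66.1 and 69.7 to 142 and 130 FPKM (log2 difference 0.99, adjusted p = 0.00902). SLC30A4, a zinc transporter, went from 47.0 and 50.7 to 88.9 and 86.0 (log2 difference 0.83, adjusted p = 0.00841), and on the same-total scale it no longer passed (log2 difference 0.23, adjusted p = 0.0787). PMEPA1, which is better known as induced by androgen than repressed, fell from 35.3 and 41.6 to 19.5 and 15.7 FPKM (log2 difference -1.08, adjusted p = 0.0255), which did not pass without the filter on low values (adjusted p = 0.0534). The transcription factor MAF fell from 4.46 and 4.41 to 2.61 and 2.60 FPKM (log2 difference -0.59, adjusted p = 0.0112).

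Liver and gut express UGT2B genes strongly, so markers of other cell types were read beside them. Of 11 hepatocyte markers, 9 were identified, and their FPKM summed to 0.997 and 0.945 without and to 2.15 and 2.01 with the CRYM vector. The 1 tested, TTR, was higher with CRYM, at 0.185 and 0.205 against 1.44 and 1.49 FPKM (log2 difference 1.04, adjusted p = 0.00911). The other 8 markers summed to 0.812 and 0.740 against 0.713 and 0.525 FPKM. ALB, the defining product of hepatocytes, stayed at 0.0872 to 0.188 FPKM. All 5 enterocyte markers were identified: FABP1 and APOA4 were at 0 in every library, and the sum was 2.95 and 3.24 against 2.46 and 2.52 FPKM. The sums of basal prostate (2 of 4 identified), neuroendocrine (4 of 6), immune (2 of 4) and endothelial (2 of 3) markers were at or under 2.42 FPKM in every library. Fibroblast markers (2 of 4) summed to 4.23 and 4.32 against 5.61 and 6.87 FPKM. The basal, neuroendocrine and endothelial lists had no tested member. The enterocyte, immune and fibroblast lists had 1 each, VIL1, HLA-DRA and COL1A1, and none passed in the main limma fit. VIL1 passed as lower with quantile normalization (adjusted p = 0.0387). On the same-total scale VIL1 and HLA-DRA passed as lower (adjusted p = 0.00984 and 0.00821), as did 6256 of all 10091 tested loci. The part of TMPRSS2, SPDEF or TTR in the UGT2B values was not tested.

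The named protein-coding loci whose 4 values lay nearest to a member were found among 798 tested candidates, by Euclidean distance of log2(FPKM + 1) centred on each gene's mean over the 4 libraries. For UGT2B17 these were B3GNT9 (distance 0.128), ADRA2A (0.161) and HIST2H2AA3 (0.175). ADRA2A, an adrenergic receptor gene, read 1.94 and 2.44 FPKM with the empty vector and 15.7 and 15.8 with CRYM, a ratio of 7.18. B3GNT9 was listed at 0 in both empty vector libraries and read 4.30 and 4.66 FPKM with CRYM. HIST2H2AA3, a histone gene with a near-identical copy and therefore uncertain, was listed at 0 and read 4.20 and 4.09. For UGT2B15 they were LIX1L (0.081), WDR5B (0.135) and MFGE8 (0.265). MFGE8, listed at chr15:89447021-89448159, read 1.35 and 1.61 FPKM with the empty vector and 16.1 and 18.1 with CRYM, a ratio of 11.6. LIX1L and WDR5B were listed at 0 with the empty vector and read 7.52 and 7.44, and 7.09 and 6.98, with CRYM. On the scale of log2(FPKM + 1) a rise from 0 can match a fold change from a higher level. B3GNT9, HIST2H2AA3, LIX1L and WDR5B therefore have no ratio to compare, and why they were listed at 0 was not tested.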

How the data were processed

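RNA of 4 libraries was sequenced as single reads of 50 bases after a stranded mRNA kit, per the labels' protocols. The deposited values are FPKM with a lower and an upper bound per locus, per the file headers. TopHat2 2.1.1, Bowtie2 2.2.9, Cufflinks 2.2.1, Cuffdiff, hg19 and GRCh37 are named in the submitters' processing notes with no role. The members, lists and the rule for named genes were chosen with earlier results of these data known. That rule takes every member, CRYM, list genes past the threshold (or the 2 highest of a list with none), the pseudogenes and flanking genes of the cluster, and the 3 loci nearest to UGT2B15 and UGT2B17. Tables were joined by identical position, 52318 loci, 37712 of them named. Unnamed genes were placed between named neighbours in GENCODE v29 order with a width ratio of 0.9 to 1.1. As a check, 4068 named loci were hidden in turn, and 2874 were placed, 98.8% of them at the right position. The right locus was always present in the joined tables there, which need not hold for an unnamed gene. limma 3.58.1 (R 4.3.3) was fitted to log2(FPKM + 1) with a trend, two-sided, with Benjamini-Hochberg adjustment at 0.05, at the 10091 loci that reached 1 FPKM in 2 or more libraries and had status OK in every table. A log2 difference on this scale understates the change of low genes. The fit was tested on simulated data. Depth was compared through the value of 1 read at 6 locus widths, within a tolerance of 0.02, and the absolute depth is unknown. Python 3.11.15 and mafft 7.526 were used for the other steps. Alternatives covered the pseudocount, filter, scaling, replicate block, variance trend, match of members, bounds and each library left out. Marker sums without TMPRSS2 or TTR and shares by implied fragments were added after seeing the data.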

Additional observations from a re-analysis of the deposited data

How the results depend on the processing

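All 6 UGT2B genes had both CRYM libraries above both empty vector libraries under each alternative run. A pseudocount, a library left out or a match of at least 0.8 could not have changed this here, and the genes were chosen from the same contrast, so it is no support. Over all loci, limma called 3365 (47.0% higher). It called 1871 without the filter on low values and 6553, of which 4.53% were higher, with libraries rescaled to the same total. On that scale 10 list genes (main 6, now 2 higher and 8 lower) and 1 locus of the cluster region were called. The main fit called 2 region loci, 1 of them the wider locus that spans UGT2B11. The log2 difference turned to -0.12 for STEAP2 and -0.21 for YTHDC1 on the same-total scale. With each library left out in turn, limma called 0 loci, list genes and region loci in every case (3627 to 3815 loci at an unadjusted p under 0.05), and the lone library is then assumed to vary like the other group. With the replicate number as a block it called 0 of each (3819 loci unadjusted). The labels do not say that the numbers pair the samples. Deviations of same-numbered libraries correlated at 0.0361, which cannot show whether they were paired. Fewer residual degrees of freedom follow from these designs. Few implied fragments stand behind UGT2B4, the UGT2B7 locus and the pseudogenes.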
